A study of Mus musculus with 7 samples.

Results

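Lsp1, the calponins Cnn2 and Cnn3, the calponin relative Tagln2, the tropomyosins Tpm1, Tpm3 and Tpm4, the alpha-actinins Actn1 and Actn4, and caldesmon (Cald1) encode proteins that bind along the sides of actin filaments. These 10 of the 23420 genes in the counts table were taken by symbol. They were assembled around Lsp1, Cnn2 and Tpm4 because those genes were higher in cKO than in WT in these libraries, so the differences of these 3 genes between the groups describe how the set was chosen. They are given with their error, without a p-value, and nothing rests on their being called. The other 7 were added as relatives or as genes of like function.

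The RNA came from cortical microglia (macrophages that reside in brain tissue) of mice at postnatal day 30, sorted as CD11b+, CD45low, CX3CR1+ cells. The 4 cKO mice were MG-Srgap2f/f, with the genotype Tmem119creErt2+ Srgap2f/f, in which tamoxifen activates a recombinase made in microglia. The 3 WT mice were Srgap2f/f littermates without the recombinase, and both groups were given tamoxifen at 75 ug per g in 2 doses, at postnatal days 8 and 10. The recombinase and its Tmem119 allele were present only in cKO, so their effects and those of the Srgap2 deletion cannot be told apart. The labels give neither sex nor litter nor sort or sequencing batch. Each library was from a separate numbered mouse, so p-values rest on the variation among mice.

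Filament-side binders set how long an actin filament lasts, which other proteins reach it and how it is tied to its neighbours. Tropomyosins form coiled coils that lie end to end along the filament and control access of myosin and of severing proteins. Calponins, transgelins and caldesmon stabilise filaments and restrain myosin, alpha-actinins cross-link filaments and tie them to adhesions, and Lsp1 is an F-actin binder of leukocytes known for its part in their migration and in phagocytosis.

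Microglial RNA was as labelled: the 10 microglia markers listed, among them P2ry12 and Cx3cr1, summed to between 51300 and 59800 CPM in cKO libraries and between 60600 and 63500 CPM in WT libraries. CPM is the count of a gene relative to its library size, scaled by TMM factors, in the usual unit of 1e6 counts. The lower sum in cKO included Tmem119, the locus of the recombinase, which averaged 3707 ± 716 CPM in cKO against 6557 ± 571 CPM in WT (SD, n = 4 and 3) and was the only one of the 10 to pass the test. It was not Tmem119 alone: Cx3cr1 averaged 6521 ± 326 CPM in cKO and 7603 ± 547 CPM in WT. Every cKO library was below every WT library for Cx3cr1, as for 7.2% of all genes tested. Fold changes were above 0 for 3 of the 10 markers. Srgap2 was 344, 257, 275 and 212 CPM in the cKO libraries, against 979, 691 and 693 CPM in the WT libraries, with a log2 fold change of −1.53 (SE 0.17, adjusted p = 0.00525 by the quasi-likelihood test of edgeR). Values of single libraries are listed in order of replicate number. Total counts lay between 27016173 and 35707304. Markers of other cells that could enter the sort were low, and none of those with enough counts to be tested passed. All 7 border macrophage markers were tested, but only 2 of the 8 monocyte and neutrophil markers in the table. Tested too were 1 of 9 lymphocyte, 3 of 6 endothelial and 1 of 12 mural cell and fibroblast markers. Of those of astrocytes, neurons and oligodendrocytes 8 of 10 were tested. The 7 border macrophage markers summed to 66.3 to 131 CPM in cKO and 72.2 to 110 CPM in WT. The 8 monocyte and neutrophil markers summed to 8.48 to 10.3 CPM in cKO and 5.85 to 10.7 CPM in WT, with Retnlg at 0. Plac8 was the monocyte and neutrophil marker with all cKO libraries above all WT libraries (6.46 CPM on average in cKO, against 4.66 CPM in WT), and it did not pass; its part in the results was not tested. Endothelial markers summed to 52.4 to 69.8 CPM in cKO and 66.4 to 74.8 CPM in WT, nearly all of it Pecam1, with Cldn5, Ly6c1 and Slco1a4 at 0. Those of astrocytes, neurons and oligodendrocytes summed to 68.9 to 113 CPM in cKO and 66.0 to 87.3 CPM in WT, most of it Mbp.

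The sequences before the transcription start are shown for 3 genes of the set: Cnn2 and Tpm4, which were higher in cKO, and Tpm1, a tropomyosin whose groups overlapped. Each is the 250 bases upstream of the start in the RefSeq annotation of GRCm38.p6, read 5′ to 3′ on the gene's strand. Windows were found for 9 of the 10 genes, and Lsp1 is named only. Capitals mark matches, on either strand, to the CArG box, to GAGGAA or to CATTCC. The CArG box, the site of serum response factor, was taken as CCWWWWWWGG, where W is A or T, with no mismatch allowed. GAGGAA is a site of the ETS factor PU.1 of myeloid cells, and CATTCC is the site of TEAD factors. A GAGGAA that ran into a CATTCC of the other strand would count under both.
Cnn2, chr10:79988350-79988599, plus strand: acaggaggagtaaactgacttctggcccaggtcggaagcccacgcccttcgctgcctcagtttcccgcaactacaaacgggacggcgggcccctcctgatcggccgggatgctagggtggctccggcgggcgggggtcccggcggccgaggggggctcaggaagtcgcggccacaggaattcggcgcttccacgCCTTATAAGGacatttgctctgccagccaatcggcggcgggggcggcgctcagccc
Tpm4, chr8:72135038-72135287, plus strand: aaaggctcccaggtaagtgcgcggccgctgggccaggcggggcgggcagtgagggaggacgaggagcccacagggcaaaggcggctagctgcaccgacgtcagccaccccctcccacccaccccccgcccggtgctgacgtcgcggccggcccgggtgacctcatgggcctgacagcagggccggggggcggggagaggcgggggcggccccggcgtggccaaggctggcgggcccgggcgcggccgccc
Tpm1, chr9:67049214-67049463, minus strand: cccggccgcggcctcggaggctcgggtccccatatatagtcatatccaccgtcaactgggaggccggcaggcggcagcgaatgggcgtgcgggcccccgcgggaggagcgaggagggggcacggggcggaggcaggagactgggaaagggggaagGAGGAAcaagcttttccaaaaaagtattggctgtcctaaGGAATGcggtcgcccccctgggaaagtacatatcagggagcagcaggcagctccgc

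Counted back from the start, the Cnn2 window held a CArG box at −56, and no other window of the set held an exact match to it. A CArG box was present in 1.47% of 32851 mouse promoter windows of this length. Tpm4 held none of the 3 motifs. Tpm1 held GAGGAA at −95 and CATTCC at −56. Elsewhere in the set CATTCC was found in Tagln2 at −118 and again nearer the start, in Actn4 at −216 and in 1 of the windows of Cald1 at −153, and GAGGAA in 1 of the windows of Tpm3 at −169. Over all windows GAGGAA was present in 23.3% and CATTCC in 12.6%. These matches describe letters in a window and were not measured as bound sites.

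Of the 10 genes, 9 had enough counts to be tested and Cald1 did not. The 3 genes that the set was built on, Lsp1, Cnn2 and Tpm4, are also those that lie past the adjusted threshold of 0.05, which their choice fixed. Of the other 6 tested, none passed in either direction. Over the 11991 genes tested 0.317% were higher and 0.0417% lower by that rule, and nothing is read from the set's share, since it was chosen on this contrast. Fold changes were above 0 for 8 of the 9, with a median log2 fold change of 0.60. Both values include the 3 chosen genes, whose direction was fixed by their choice, so neither is set against all genes. Of the other 6, all but Actn1 were above 0. Over all genes tested 48.1% were above 0, with a median of −0.01. Among those 6, every cKO library was above every WT library in Cnn3 and Tpm3, which held for 8.86% of all genes tested. The chosen Lsp1, Cnn2 and Tpm4 were also apart in this way. The opposite held for none of the set and for 7.2% of all.

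Lsp1 was 247, 220, 211 and 284 CPM in the cKO libraries, against 75.6, 49.6 and 69.1 CPM in the WT libraries. The lowest cKO library was well above the highest WT library, and cKO 4 was the highest of all. The mean was 240 ± 33.0 CPM in cKO and 64.8 ± 13.6 CPM in WT (SD, n = 4 and 3), a log2 fold change of 1.89 (SE 0.17, 95% interval 1.53 to 2.25), or 3.71-fold. With 1 library left out at a time the log2 fold change lay between 1.72 and 2.02. Mice fell into a run of numbers from 1058 to 1062 (cKO 1, cKO 2 and WT 1) and another from 1101 to 1109. The difference in mean log2 CPM was 1.62 in the first run and 2.06 in the second. Xist was at 69.4 CPM or more in cKO 2, cKO 4, WT 2 and WT 3 and at 0.658 CPM or less in the others. The Lsp1 difference was 2.09 among the libraries with Xist and 1.59 among those without. WT 1 was the only WT library of the first run and the only WT library without Xist. For every gene the WT sides of both splits are thus the same, and 1 side rests on that 1 library. In bulk libraries a change in the number of cells that express a gene and a change in RNA per cell cannot be told apart. Lymphocytes and monocytes also express Lsp1. Lymphocyte markers summed to 34.9 to 60.9 CPM in cKO and 40.4 to 54.0 CPM in WT, nearly all of it Cd79b, with Cd2 at 0 in all libraries. The part of the lower microglia marker sum of cKO in the differences of these genes was not tested.

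Cnn2 encodes calponin 2, a calponin found in non-muscle cells, macrophages among them. Its levels were 50.9, 110, 88.0 and 93.3 CPM in the cKO libraries, against 32.1, 17.7 and 15.8 CPM in the WT libraries. The groups did not overlap, but both were wide: cKO 1 was the lowest of its group and WT 1 the highest of its group. The mean was 85.5 ± 24.9 CPM in cKO and 21.9 ± 8.90 CPM in WT (SD, n = 4 and 3). Its log2 fold change was 1.97 (SE 0.29, 95% interval 1.33 to 2.61), or 3.92-fold. The difference in mean log2 CPM was 1.22 in the first run of mouse numbers and 2.43 in the second, and it was 2.59 among libraries with Xist and 1.06 among those without. Both the 1.22 and the 1.06 rest on WT 1 as the only WT library, so they are not separate checks. With 1 library left out at a time its log2 fold change lay between 1.78 (without WT 3) and 2.35 (without WT 1). Abca7, the next gene to Cnn2, had a log2 fold change of −0.11 (SE 0.12, adjusted p = 0.712).

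Cnn3, calponin 3, was near the limit of detection with 8 to 25 counts per library. It was 0.797, 0.846, 0.619 and 0.674 CPM in the cKO libraries, against 0.439, 0.254 and 0.530 CPM in the WT libraries. All cKO libraries were above all WT libraries. Its log2 fold change was 0.84 (SE 0.39, 95% interval −0.006 to 1.68) and did not pass the quasi-likelihood test (adjusted p = 0.306). Transcripts of other loci share 30.3% of its stretches of 50 bases, so the counts of Cnn3 are uncertain.

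Tagln2, transgelin 2, is an actin-stabilising relative of the calponins found in many blood cells. It was 26.2, 39.5, 42.7 and 52.5 CPM in the cKO libraries, against 24.0, 26.4 and 29.5 CPM in the WT libraries. Replicate 1 of cKO lay among the WT libraries, and the other cKO libraries were above them all. The mean was 40.2 ± 10.9 CPM in cKO and 26.6 ± 2.78 CPM in WT (SD, n = 4 and 3), with a log2 fold change of 0.60 (SE 0.20, 95% interval 0.16 to 1.03) that did not pass (adjusted p = 0.172). Tagln2 passed when cKO 1 was left out (log2 fold change 0.74, adjusted p = 0.0343) and when Xist was a covariate (0.68, adjusted p = 0.0461). Over all genes, 142 were called without cKO 1 and 1056 with the Xist covariate, against 43 in the main fit. The adjusted p lay between 0.0343 and 0.436 over the 17 alternatives. Libraries also differed in how levels followed the GC content of genes: the rank correlation across 11299 genes was −0.51, 0.16, −0.40 and 0.43 for the cKO libraries and 0.00, 0.06 and 0.23 in the WT libraries. Corrected for GC content and length, the log2 fold change of Tagln2 was 0.55 (adjusted p = 0.0641), and those of Lsp1, Cnn2 and Tpm4 were 1.94, 2.01 and 0.91.

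**Figure D1:**
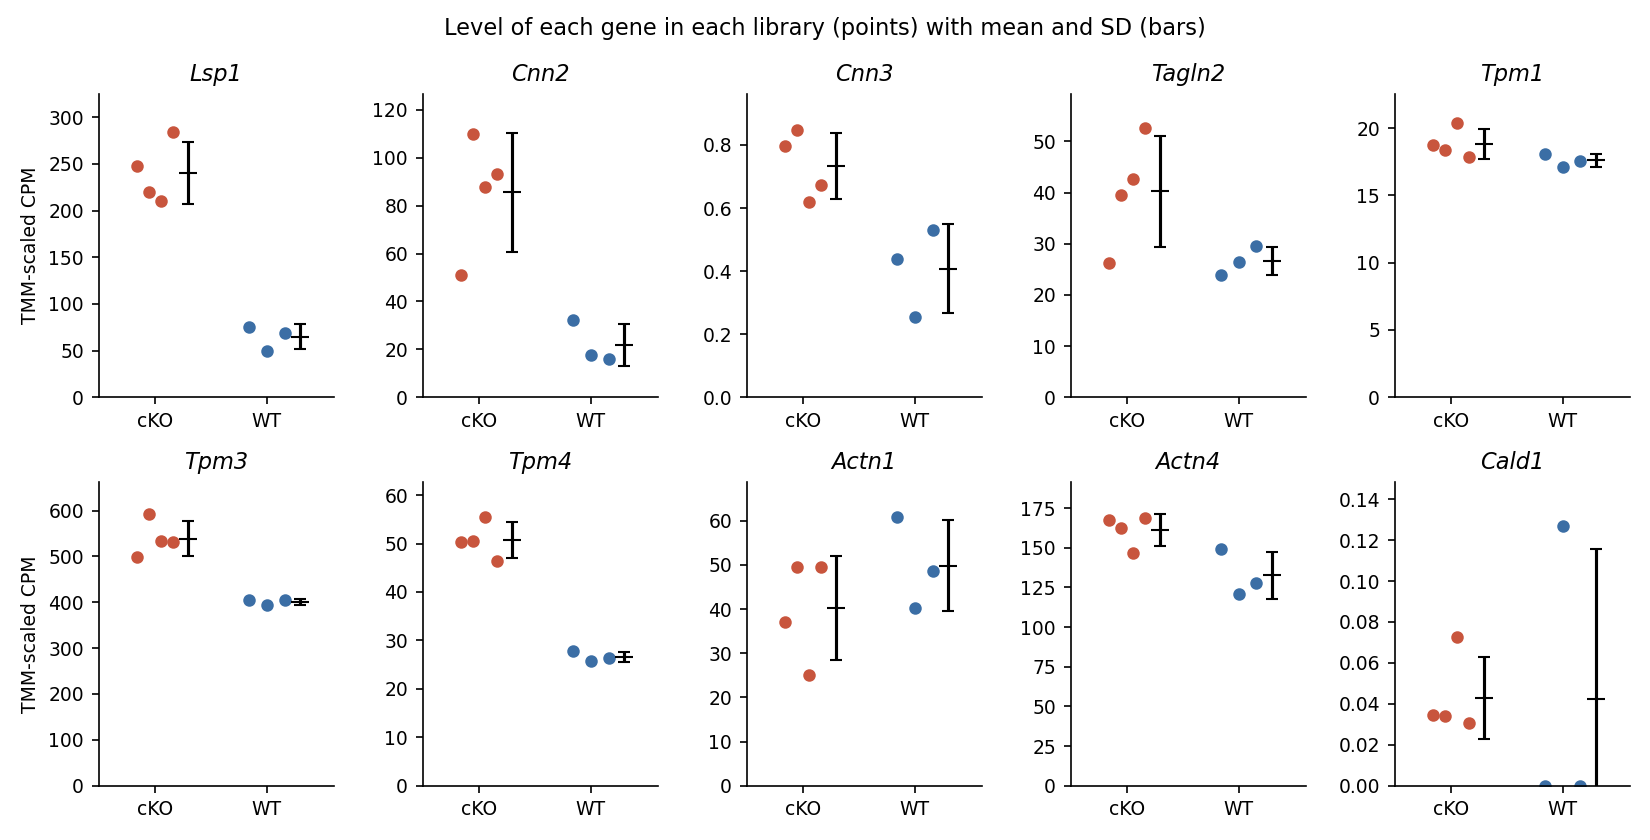
Level of each of the 10 genes in every library, as TMM-scaled CPM on axes that start at 0; points are libraries, cKO left of WT, and bars are the mean with its SD. The groups are apart for Lsp1, Cnn2, Cnn3, Tpm3 and Tpm4 and overlap for the other 5 genes.

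Tpm4, a tropomyosin of non-muscle cells, was 50.2, 50.6, 55.5 and 46.4 CPM in the cKO libraries, against 27.7, 25.7 and 26.4 CPM in the WT libraries. Both groups were tight and far apart. The mean was 50.7 ± 3.75 CPM in cKO and 26.6 ± 1.03 CPM in WT (SD, n = 4 and 3), a log2 fold change of 0.93 (SE 0.11, 95% interval 0.69 to 1.17), or 1.91-fold. The difference in mean log2 CPM was 0.86 and 0.96 in the first and second run of mouse numbers, and 0.89 and 0.93 in libraries with and without Xist. With 1 library left out at a time the log2 fold change lay between 0.88 and 0.97. A pseudogene and an antisense gene share 16.1% of its stretches of 50 bases.

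Tpm3, the tropomyosin with the highest level in these cells, was 499, 592, 533 and 531 CPM in the cKO libraries, against 405, 393 and 404 CPM in the WT libraries. No cKO library came as low as a WT library. For Tpm3 the log2 fold change was 0.43 (SE 0.10, 95% interval 0.21 to 0.65) and did not pass the quasi-likelihood test (adjusted p = 0.0978). It passed with DESeq2 (adjusted p = 0.00324), with Xist as a covariate (0.0164) and with offsets for GC content and length (0.0459), within a range of 0.00324 to 0.386 over the 17 alternatives. In that order these settings called 524, 1056 and 352 of the 11991 genes tested, against 43 in the main fit. The difference in mean log2 CPM was 0.42 in each run of mouse numbers. The retrogene Tpm3-rs7 shares 62.4% of the stretches of 50 bases of Tpm3, so the counts of Tpm3 are uncertain.

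Tpm1 encodes a tropomyosin of muscle and non-muscle cells. It was 18.7, 18.3, 20.4 and 17.8 CPM in the cKO libraries, against 18.1, 17.1 and 17.6 CPM in the WT libraries. The groups overlapped in a narrow band. Tpm1 had a log2 fold change of 0.10 (SE 0.12, 95% interval −0.17 to 0.36) that did not pass (adjusted p = 0.743), so a rise of up to 0.36 on the log2 scale lies within the interval.

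Taken per kb of transcript and summed, the tropomyosins Tpm1, Tpm2, Tpm3 and Tpm4 came to 510 ± 34.6 CPM per kb in cKO and 377 ± 6.28 CPM per kb in WT (SD, n = 4 and 3). Tpm4 was 4.98%, 4.27%, 5.14% and 4.35% of that sum in the cKO libraries, against 3.42%, 3.27% and 3.27% in the WT libraries. Its share was thus higher in every cKO library, while Tpm3 made up 92.7% of the sum in cKO and 93.4% in WT, and Tpm1 2.25% in cKO and 2.85% in WT. Among the calponins and transgelins, Cnn2 was 43.8%, 52.8%, 45.9% and 42.3% of the sum in the cKO libraries, against 34.9%, 21.6% and 17.9% in the WT libraries. Tagln2 held 51.8 ± 4.85% of that sum in cKO and 72.3 ± 9.29% in WT. By this length Cnn2 and Tagln2 were close to each other in cKO, and Tagln2 was the main one in WT. The summed level of the calponins and transgelins was 109 ± 27.6 CPM per kb in cKO and 51.6 ± 2.94 CPM per kb in WT. These shares depend on the transcript length taken. Per kb of the longest coding transcript Tpm4 was 8.75 ± 0.784% of the tropomyosins in cKO and 6.28 ± 0.158% in WT, and Cnn2 exceeded Tagln2 in cKO (56.3% against 41.5% of the calponins and transgelins) but not in WT (32.8% against 63.5%). These shares restate levels that chose the set and carry no test.

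Actn4, the broadly expressed alpha-actinin 4, was 167, 163, 147 and 169 CPM in the cKO libraries, against 149, 121 and 128 CPM in the WT libraries. One library of each group overlapped: cKO 3 lay just below WT 1. Actn4 had a log2 fold change of 0.28 (SE 0.11, 95% interval 0.04 to 0.52), with an adjusted p of 0.229. Capn12, on the opposite strand, had at most 3 counts in a library.

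Actn1, alpha-actinin 1, was the only tested gene of the set with a negative fold change. It was 37.0, 49.6, 25.01 and 49.6 CPM in the cKO libraries, against 60.7, 40.2 and 48.6 CPM in the WT libraries. The groups overlapped, with cKO 3 lowest and WT 1 highest. The log2 fold change was −0.31 (SE 0.22, 95% interval −0.79 to 0.18) and did not pass (adjusted p = 0.537). The difference in mean log2 CPM was 0.17 among libraries with Xist and −0.995 among those without, and whether these differ was not tested. The value without Xist rests on WT 1 as the only WT library. Opposite-strand genes (Gm47766 and Gm47767) overlap exons of Actn1, 10.2% of its stretches of 50 bases are shared with other genes, and the strand setting of the counting is not given in the sources used here. Actn4 made up 89.3 ± 2.45% of the summed alpha-actinin level per kb in cKO and 84.6 ± 1.32% in WT. Per kb of the longest coding transcript its share was 79.6 ± 4.21% in cKO and 71.9 ± 2.06% in WT, so it depends on the length taken.

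Cald1, caldesmon, is a binder of tropomyosin and actin best known from smooth muscle and fibroblasts. It had 1, 1, 2 and 1 counts in the cKO libraries, against 0, 4 and 0 counts in the WT libraries. These are levels at the limit of these libraries: a count of 0 allows up to 0.110 CPM in WT 1 and up to 0.0837 CPM in WT 3, which covers counting error only. No difference was detectable at this depth. Mural cell and fibroblast markers summed to 1.04 to 3.59 CPM in cKO and 1.68 to 4.82 CPM in WT, with Rgs5 and Kcnj8 at 0.

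**Figure D2:**
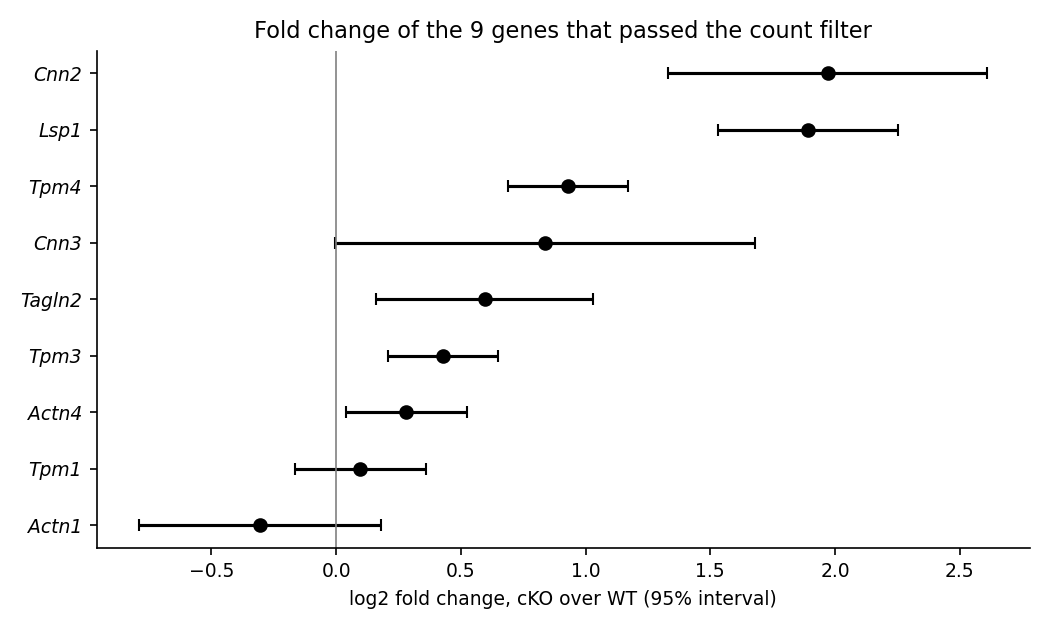
The log2 fold change of cKO over WT for the 9 genes with enough counts, with 95% intervals from the quasi-likelihood fit. Cnn2 (1.97) and Lsp1 (1.89) are at the top, Tpm4 follows at 0.93 with a narrow interval, and Actn1 (−0.31) is the one gene below 0.

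To compare the genes with each other, CPM was divided by the median length of their coding transcripts in kb. In cKO the order was Tpm3 (mean 473 CPM per kb), Lsp1 (142), Actn4 (105), Tagln2 (56.2), Cnn2 (50.5), Tpm4 (23.8), Actn1 (12.6), Tpm1 (11.5), Cnn3 (0.878) and Cald1 (0.0268). The ranges over libraries of Tagln2 and Cnn2 overlapped, and so did those of Actn1 and Tpm1, while the other neighbours were apart. In WT the order was Tpm3 (352), Actn4 (86.1), Lsp1 (38.2), Tagln2 (37.2), Actn1 (15.6), Cnn2 (12.9), Tpm4 (12.5), Tpm1 (10.7), Cnn3 (0.487) and Cald1 (0.0264). Lsp1 and Tagln2 overlapped there, as did Actn1 with Cnn2 and Cnn2 with Tpm4. Lsp1 thus stood above Actn4 in every cKO library and below it in every WT library. Per kb of the longest coding transcript instead, Lsp1 and Actn4 were nearly equal in WT (33.9 and 34.2 CPM per kb), so the gap between them in WT depends on the transcript taken. By that length Lsp1 stood above Tagln2 (16.8 CPM per kb) in WT, and Cnn2 (34.8 CPM per kb) stood above Tagln2 (25.4 CPM per kb) in cKO.

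**Figure D3:**
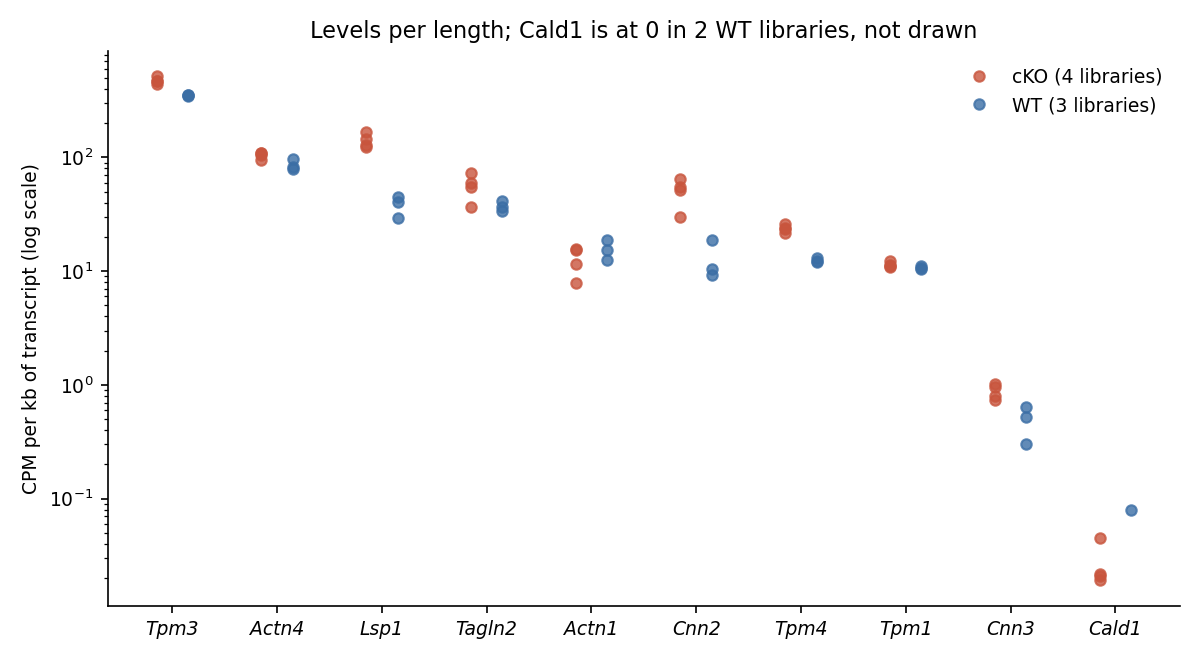
CPM per kb of coding transcript on a log axis, in order of the WT mean; each point is a library, cKO left of WT. Tpm3 has the highest level in both groups. By the median transcript length used here, Lsp1 lies above Actn4 in cKO and level with Tagln2 in WT.

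Among all genes tested, those whose centred log2 CPM over the 7 libraries lay nearest to that of Lsp1 were Top2a (root mean square difference 0.24), Rrm2 (0.31) and Mki67 (0.35). Top2a, Rrm2 and Mki67, which dividing cells express, had mean levels of 1.56, 0.745 and 1.01 CPM in cKO, against 0.406, 0.108 and 0.268 CPM in WT, far below Lsp1. Nearest to Cnn2 were Pbk (0.42), Rrm2 (0.44) and Lsp1 (0.44). Pbk was low too, with a cKO mean of 0.427 CPM and a WT mean of 0.142 CPM. These distances use log2 CPM with a prior count of 2, which shrinks the differences of genes with few counts. Rrm2 had a log2 fold change of 2.765, against 1.893 for Lsp1, although it was among the nearest to Lsp1. How far the prior sets the nearness of these low genes was not tested. Nearest to Tpm4 were Mtpn (0.12), which binds actin capping protein, Gng12 (0.12), a G protein gamma subunit, St13 (0.14) and Hn1l (0.15). Within the set Lsp1 was nearer to Cnn2 (0.44) than to Tpm4 (0.54), and Cnn2 and Tpm4 were 0.67 apart. Genes that separate the 2 groups by a like amount are near each other by this measure.

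The wider machinery was followed in 55 listed genes outside the set, 41 of which had enough counts. By edgeR's quasi-likelihood test 0 passed in either direction. An unadjusted p under 0.05 was found for 9 of the 41, against 16.5% of all genes tested. DESeq2 called 6, against 4.37% of all genes, and limma-voom 0, against 0.392%. Fold changes were above 0 for 27 of the 41, with a median log2 fold change of 0.17.

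The list on non-muscle myosin II and its light-chain control, the motor that tropomyosins and calponins regulate, had 11 tested genes with a median log2 fold change of 0.08, of which 7 were above 0. In 4 of them every cKO library was above every WT library, which held for 8.86% of all genes tested. Rhoa, the GTPase that turns on myosin through Rock kinases, was 501, 623, 579 and 610 CPM in the cKO libraries, against 396, 407 and 414 CPM in the WT libraries (log2 fold change 0.51, SE 0.11, adjusted p = 0.0751). The myosin light chain genes had larger fold changes and larger p-values: Myl12a at 0.66 (SE 0.15, adjusted p = 0.0963), Myl6 at 0.65 (SE 0.16, adjusted p = 0.109) and Myl12b at 0.55 (SE 0.15, adjusted p = 0.125). DESeq2 called these 4 genes. The heavy chains did not share these values, with log2 fold changes of 0.08 for Myh9, the main one by level (819 ± 44.7 CPM in cKO, against 773 ± 151 CPM in WT), and −0.03 for Myh10.

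Tropomodulins cap the slow-growing end of filaments covered by tropomyosin. Of 3 tested, Tmod3, the one with the most counts, was 107, 90.9, 102 and 80.0 CPM in the cKO libraries, against 73.0, 67.1 and 63.4 CPM in the WT libraries. The groups did not overlap, and the log2 fold change of 0.49 (SE 0.12) did not pass the quasi-likelihood test (adjusted p = 0.119), though DESeq2 called it. Tmod2, with at most 19 counts in a library, was at 0.55 (SE 0.56) and Tmod1 at −0.14 (SE 0.23).

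Among 9 tested partners of alpha-actinin at adhesions and the cortex, 7 were above 0, with a median of 0.22. Zyx, zyxin of focal adhesions, had 168 ± 25.1 CPM in cKO and 120 ± 8.89 CPM in WT (SD, n = 4 and 3), with no overlap (log2 fold change 0.48, SE 0.13, adjusted p = 0.131 by edgeR). Itgb1, integrin beta 1, was at 0.21 (SE 0.10, adjusted p = 0.319), Tln1, talin 1, at 0.28 (SE 0.13, adjusted p = 0.324) and Pdlim4, a PDZ and LIM protein that binds alpha-actinin, at 0.29 (SE 0.15, adjusted p = 0.365). Among 6 other filament-side binders 5 were above 0, with a median of 0.20. Hcls1, the cortactin relative of blood cells, was 650, 842, 799 and 911 CPM in the cKO libraries, against 615, 618 and 628 CPM in the WT libraries. It did not overlap between the groups and was at 0.37 (SE 0.12, adjusted p = 0.173), and Lasp1 was at 0.25, Lima1 at 0.16 and Svil at −0.21.

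The kinases and motors tied to Lsp1 were balanced about 0. Of 8 tested, 4 were above 0, with a median of −0.02. Mapkapk2, the kinase known for phosphorylating Lsp1, was at 0.22 (SE 0.15, adjusted p = 0.503) and its relative Mapkapk3 at −0.54 (SE 0.32, adjusted p = 0.437). Myo1f, a class I myosin of immune cells, was at 0.17 (SE 0.11) and Prkcd, a protein kinase C, at −0.13 (SE 0.10). For Prkcd all cKO libraries lay below all WT libraries, as for 7.2% of all genes tested, at 462, 445, 457 and 456 CPM in cKO against 535, 482 and 478 CPM in WT, and did not pass (adjusted p = 0.544). None of the 4 tested paralogs outside the set, all below 5 CPM in every library, passed: Tpm2 was at 0.21 (SE 0.30), Tagln at 0.47 (SE 0.43), Tagln3 at −0.03 (SE 0.57) and Actn3 at −0.84 (SE 0.46). Its groups were apart too, with 4 to 9 counts in cKO, against 10 to 16 counts in WT, and did not pass (adjusted p = 0.387).

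**Figure D4:**
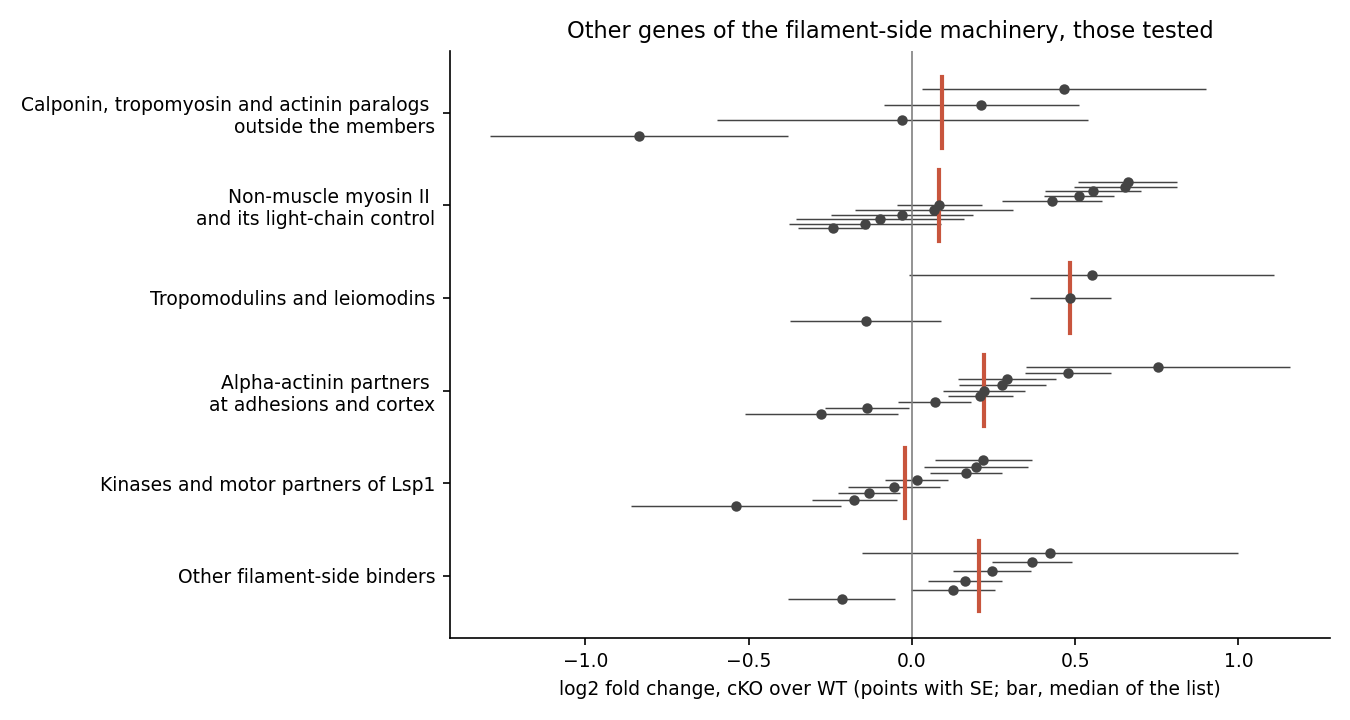
The log2 fold change of cKO over WT with its SE for the 41 tested genes of the 6 lists; each dot is a gene and the red bar is the median of its list. Rhoa (0.51), Myl12a (0.66), Myl6 (0.65) and Myl12b (0.55) stand to the right in the myosin II list, and the Lsp1 kinases and motors spread about 0.

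Across the 17 alternatives in normalization, test, filter, block, covariate and left-out library, Tpm1, Tagln2, Actn1 and Actn4, whose groups overlapped, kept the sign of their fold change. For genes whose groups are apart, leaving out a library cannot turn the sign. Cnn2, Cnn3 and Actn1 moved most, in log2 units, when 1 library was left out.

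**Figure D5:**
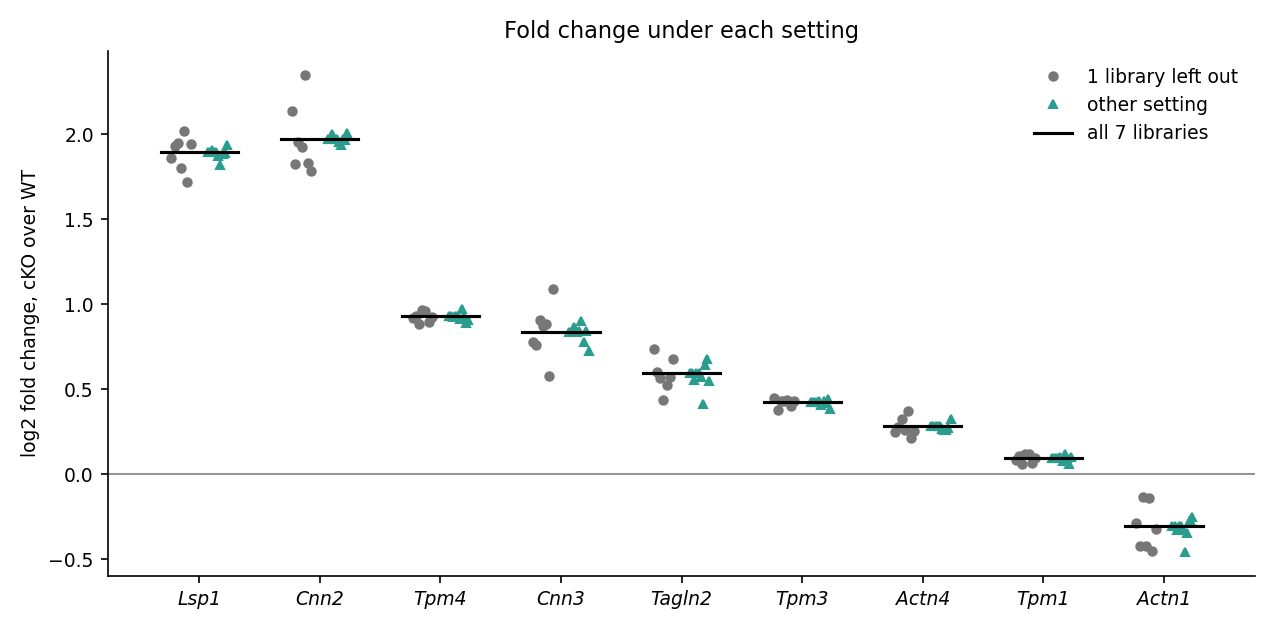
The log2 fold change of cKO over WT for 9 genes with all 7 libraries (line), with 1 library left out (circles) and under the other settings (triangles). Lsp1 lies between 1.72 and 2.02, Tpm4 between 0.88 and 0.97, and Cnn2 between 1.78 and 2.35. No gene crosses 0, which the circles could not do for Lsp1, Cnn2, Cnn3, Tpm3 and Tpm4, whose groups are apart.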

How the data were processed

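Poly(A) RNA of sorted cortical microglia was sequenced from 4 cKO and 3 WT mice. The authors deposited whole-number counts per gene symbol, not normalized. DRAGEN and the GRCm39 build were used, per the submitters' processing notes. Which annotation, counting rule and strand were used is not given in the sources used here. No pair of libraries of a group agreed within sampling noise (chi-square from 18.8 to 98.3 per degree of freedom).

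Genes were kept with filterByExpr of edgeR 4.0.16 (least count 10, least total count 15; R 4.3.3, limma 3.58.1), scaled with TMM factors and compared with the robust quasi-likelihood F test. Benjamini-Hochberg adjustment was over all 11991 genes tested and the threshold was 0.05. The SE is the size of the log2 fold change divided by the square root of F. Log2 CPM used a prior count of 2. A count of 0 was taken to allow 3 counts. Total counts were 27016173 to 35707304, so 1 count was 0.0279 to 0.0365 CPM. The procedure was tested on simulated data.

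The named genes are Srgap2, all 10 genes of the set, up to 4 genes of each list (those with the smallest p), and for Lsp1, Cnn2 and Tpm4 the 4 genes nearest in centred log2 CPM. Predicted genes were left out there. A few genes taken by the rule or by the lists are not reported here, and the counts and sums include them. All other genes named (cell type markers, Abca7, Capn12, Myh9 and Myh10) were chosen after their values were seen. The set, the lists and the tests were chosen with earlier results of these data known. Transcript lengths, GC content and shared stretches of 50 bases are from GENCODE M21 (GRCm38), and promoters from RefSeq GRCm38.p6. Alternatives were RLE factors, DESeq2 1.42.0, limma-voom, no robust option, no filter, 1 CPM in at least 3 libraries, each library left out, a block for the replicate number or for the mouse-number run, Xist as a covariate, and offsets for GC content and length (loess, span 0.3).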

Additional observations from a re-analysis of the deposited data

Results flagged for a closer look

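Cald1 in cKO 3 stood apart from the other cKO libraries at 0.0728 CPM. This is 2 counts in that library, against 1 count in each of the other cKO libraries and 0, 4 and 0 counts in the WT libraries. A gap of this kind arises by chance in some groups of 4, and the value is within counting error.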

How the results depend on the processing

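None of the 9 tested genes changed direction under any of the 17 alternatives. For Lsp1, Cnn2, Cnn3, Tpm3 and Tpm4, whose groups are apart, leaving out a library could not have turned the sign. Cnn3 did not reach the filter of 1 CPM and has 16 alternatives. The number of the 10 genes past the threshold was 3, the genes that chose the set. This number lay between 1 and 4 with 1 library left out, and was 1 without WT 2 or without WT 3. Nothing is read from it. Of the genes that chose the set, Cnn2 did not pass in 8 of the 17 alternatives and Tpm4 in 2. The alternatives re-test the values that chose Lsp1, Cnn2 and Tpm4, so a pass of these genes is no support for them. Of the genes that did not choose the set, Tpm3 passed in 3 alternatives and Tagln2 in 2, named with their values.

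Over all genes, 43 were called. The number was 524 with DESeq2, 89 with no filter, 288 with the replicate number as a block, 170 with the mouse-number run as a block, 1056 with the Xist covariate and 352 with offsets for GC content and length, and between 4 and 142 with 1 library left out. Of the 41 tested genes in the lists of the wider machinery, 0 were called, against 6 with DESeq2, 1 with no filter, 4 with the replicate block, 3 with the mouse-number run as a block, 7 with the Xist covariate, 6 with the offsets and between 0 and 5 with 1 library left out. The cause of these shifts was not tested.

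Replicate numbers did not pair the libraries: deviations of libraries with the same number correlated at 0.39, 0.07 and −0.17, and not every library was nearest to its own number. Counts were deep for 8 of the genes, while Cnn3 and Cald1 were limited by depth.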
